A study of Mus musculus with 18 samples.

Results

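The 10 circadian clock genes Arntl, Clock, Per1, Per2, Per3, Cry1, Cry2, Nr1d1, Nr1d2 and Dbp were examined in nuclei of the mouse hippocampus (Hip) and prefrontal cortex (PFC). They were taken by gene symbol from the 30905 genes of the count matrices, and 9 of the 10 had at least 1 count. The counts are unique molecular identifiers (UMIs), each of which stands for 1 captured RNA molecule. UMIs were summed within each library over nuclei of 1 cell type, and mice served as replicates.

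Single-nucleus RNA sequencing on the 10x Genomics droplet platform had been done on 9 Kun Ming mice, an outbred stock, all 8 weeks old and kept under alternating light and dark. There were 3 germ-free (GF) mice without any microbes, 3 specific pathogen-free (SPF) mice with a normal microbiota, and 3 colonized germ-free (CGF) mice. The CGF mice were born germ-free and were housed with SPF mice in isolators for 4 weeks, whereas the SPF mice had been raised outside the isolators. No group carried a mutation or received a drug. Each mouse gave 1 library from Hip and 1 from PFC, 18 libraries in all, and values are listed below in the order of GF mice 5, 6 and 7, SPF mice 30, 31 and 32, and CGF mice 17, 18 and 19. The clock time at which each mouse was killed is not given in the sources used here. Clock transcripts cycle over the day, so a difference in collection time and a difference in microbiota cannot be told apart in any comparison of groups below.

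The mammalian clock is a feedback loop of transcription that runs in almost every cell. The activators CLOCK and BMAL1, the product of Arntl, pair and bind E-box elements in DNA, where they turn on the Per, Cry, Nr1d1, Nr1d2 and Dbp genes. PER and CRY proteins return to the nucleus and repress that pair, while the REV-ERB receptors made from Nr1d1 and Nr1d2 repress Arntl, so that Arntl transcripts peak at the opposite time of day from those of Nr1d1 and Dbp. Neurons outside the master clock of the hypothalamus and astrocytes carry this loop too.

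The libraries held 139924 barcodes, of which 138000 had at least 200 detected genes and at most 10% mitochondrial UMIs. Marker genes assigned 62693 of 71398 nuclei in Hip (87.8%) and 58265 of 66602 in PFC (87.5%) to 1 cell type, among them 39849 and 39265 excitatory neurons, 4134 and 5765 interneurons, 6548 and 5493 astrocytes, 5844 and 2652 oligodendrocytes, 1783 and 1584 oligodendrocyte precursor cells (OPC), 1962 and 1736 microglia and 808 and 898 endothelial cells. Markers that the assignment had not read were at their highest level in the type they mark in each of these types. The median UMI count per nucleus lay between 4678 and 7579 in the 9 Hip libraries, between 6795.5 and 7426.5 in the GF libraries of PFC, and between 2353 and 3208 in the SPF and CGF libraries of PFC. Mitochondrial UMIs made up 1.28% to 3.22% in those last 6 libraries and 0.077% to 1.10% in the other 12. In Hip the median was 4678 to 5905 in GF libraries, against 6172.5 to 7087 in the SPF and 5460 to 7579 in the CGF libraries, and the mitochondrial share ran from 0.645% to 1.10% in GF libraries, against 0.128% to 0.471% in the SPF and 0.077% to 0.218% in the CGF libraries. Mitochondrial share therefore moved with group in both regions, as did depth, except that the CGF libraries of Hip overlapped both other groups in depth, and their part in the differences below was not tested except by thinning all libraries of a region to equal depth. Between 6 and 29 cell barcodes were shared by any 2 libraries, at most 0.362% of the smaller library.

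Per3, the third period gene, had 0 UMIs in all 18 libraries. Its gene (ENSMUSG00000028957, chr4:151003652-151044665, minus strand) lies wholly inside Camta1 on the same strand, and Camta1 had 364781 UMIs. Of the 414 protein-coding genes placed wholly inside another gene of the same strand, 413 were at 0 UMIs (99.8%), compared with 1701 of the 21466 other protein-coding genes (7.92%). The count of 0 was therefore shared with this class of genes, and no level of Per3 could be measured from these matrices. Dbp, Nr1d1 and Arntl overlap genes of the opposite strand, namely Sphk2, Thra and Gm45355.

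The other genes lie in GRCm38 (mm10, GENCODE vM21 annotation) as follows. Arntl (ENSMUSG00000055116, chr7:113207465-113314126, plus strand) and Clock (ENSMUSG00000029238, chr5:76209868-76304792, minus strand) encode the activators. Per1 (ENSMUSG00000020893, chr11:69095217-69109960, plus strand), Per2 (ENSMUSG00000055866, chr1:91415982-91459324, minus strand), Cry1 (ENSMUSG00000020038, chr10:85131700-85185064, minus strand) and Cry2 (ENSMUSG00000068742, chr2:92403646-92434043, minus strand) encode the repressors of that pair. Nr1d1 (ENSMUSG00000020889, chr11:98767932-98775333, minus strand) and Nr1d2 (ENSMUSG00000021775, chr14:18204054-18239127, minus strand) encode the REV-ERB receptors, and Dbp (ENSMUSG00000059824, chr7:45705088-45710203, plus strand) encodes a PAR bZIP factor that carries the rhythm to output genes through D-box elements. The gene bodies ran from 5116 bases for Dbp to 106662 bases for Arntl. The GC content of their longest annotated transcripts was 61.6% for Dbp and 48.2% for Arntl.

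The start sites of these genes were read for the 3 elements of the loop, since the loop acts through them. The 250 bases upstream of each RefSeq start in GRCm38.p6 were searched for the E-box CACGTG, which reads the same on both strands, for the D-box TTATGTAA with its reverse TTACATAA, and for the core letters TAGGTCA of the element of REV-ERB and ROR receptors with their reverse TGACCTA. RefSeq entries were found for 9 of the 10 genes, with 13 windows in all, and none was found for Per2. The E-box stood in 2 of the 13 windows, 1 of Per1 and 1 of Cry1, and in 6.02% of all 32851 windows. The D-box stood in 1 window, that of Per3, and in 0.82% of all windows, and the receptor core stood in 0 of the 13 and in 2.23% of all. The 2 windows with an E-box, which is in capitals, are printed 5′ to 3′ with the window of Arntl, the activator gene whose transcripts run in the opposite phase, in which no searched element was found. A match of letters is a description of the window and shows no binding, and a missing match says only that these letters were not in it.
Per1 (chr11:69098699-69098948, plus strand, E-box 166 bases before the start): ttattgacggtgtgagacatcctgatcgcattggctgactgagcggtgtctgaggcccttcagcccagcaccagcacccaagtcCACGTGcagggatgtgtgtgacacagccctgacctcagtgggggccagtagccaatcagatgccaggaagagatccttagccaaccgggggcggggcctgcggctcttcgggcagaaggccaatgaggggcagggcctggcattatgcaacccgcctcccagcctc
Cry1 (chr10:85185055-85185304, minus strand, E-box 60 bases before the start): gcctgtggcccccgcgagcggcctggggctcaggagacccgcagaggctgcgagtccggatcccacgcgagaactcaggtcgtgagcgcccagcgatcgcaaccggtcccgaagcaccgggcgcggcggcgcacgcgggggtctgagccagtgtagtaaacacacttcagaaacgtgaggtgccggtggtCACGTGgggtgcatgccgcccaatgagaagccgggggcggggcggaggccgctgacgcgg
Arntl (chr7:113207215-113207464, plus strand): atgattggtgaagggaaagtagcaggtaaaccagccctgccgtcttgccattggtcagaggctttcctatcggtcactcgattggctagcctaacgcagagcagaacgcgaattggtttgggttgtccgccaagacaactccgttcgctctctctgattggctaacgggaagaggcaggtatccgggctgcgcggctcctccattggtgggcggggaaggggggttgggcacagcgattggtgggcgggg

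Clock transcripts were found in every cell type, at levels that differed between types. Levels are given as CPM, the share of a gene in the UMIs of the type, scaled to a common total. They are compared between types and not between genes, since droplet counts of different genes are not on 1 scale. Arntl had a median of 158 CPM (96.3 to 211) over the 9 libraries in Hip astrocytes and 79.9 CPM (63.1 to 91.8) in Hip excitatory neurons. Astrocytes were above excitatory neurons in 9 of 9 libraries, by 0.957 on the scale of log2(CPM + 1). The same neighbours in PFC had 168 CPM (115 to 214) and 154 CPM (96.2 to 169), ranges that overlapped. Clock, in contrast, was lowest in astrocytes (98.2 CPM, 77.9 to 110.2 in Hip) and highest in oligodendrocytes (184 CPM, 148 to 208).

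Among the repressors, Cry2 had 119 CPM (82.2 to 155) in astrocytes, 62.7 CPM (54.6 to 71.9) in excitatory neurons and 52.7 CPM (41.2 to 55.9) in interneurons of Hip, and 123 CPM (89.8 to 164), 76.6 CPM (64.6 to 95.5) and 54.4 CPM (44.8 to 63.5) in PFC, the same order in both regions. Per2 was at 23.2 CPM (19.3 to 40.8) in excitatory neurons and 11.8 CPM (7.90 to 14.9) in interneurons of Hip, where every library had more in excitatory neurons. Cry1 was at 8.16 CPM (6.33 to 12.1) in Hip excitatory neurons, from 3271 UMIs in all, and at 14.5 CPM (10.5 to 19.3) in Hip astrocytes, from 267 UMIs. Its neighbouring types in the order of levels did not pass the test in either region.

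Dbp and Nr1d1, the output and receptor genes, had their highest mean level in astrocytes among the types of PFC. In Hip both were highest in endothelial cells and next in astrocytes, and these 2 types did not differ by the test below. Dbp had 105 CPM (25.1 to 213) in PFC astrocytes, 33.5 CPM (19.7 to 99.3) in OPC and 30.4 CPM (12.2 to 44.2) in excitatory neurons, and 30.2 CPM (22.0 to 48.2) and 8.33 CPM (6.47 to 20.8) in astrocytes and excitatory neurons of Hip. Nr1d1 had 91.9 CPM (33.7 to 126) in PFC astrocytes and 37.4 CPM (30.9 to 55.0) in Hip astrocytes. The wide ranges in PFC astrocytes followed the groups, as given below. Nr1d2 was lowest in excitatory neurons of Hip (37.2 CPM, 32.9 to 47.7) and higher in interneurons (45.4 CPM, 38.0 to 61.3).

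For each gene the types were ordered by mean level, and each type was compared with its neighbour over the 9 libraries of a region with an exact two-sided permutation test that flips the sign of the paired differences. In Hip, 9 of 54 neighbouring pairs passed after Benjamini-Hochberg adjustment over the pairs of the region (18 before it), and in PFC 5 of 63 (9 before it). The smallest p that 512 sign flips of 9 libraries allow is 0.00391. The pairs that reached it in Hip were Arntl and Cry2 in astrocytes above excitatory neurons (0.957 and 0.862), Per2 and Cry2 in excitatory neurons above interneurons (1.09 and 0.337), Clock in oligodendrocytes above microglia (0.392) and in interneurons above astrocytes (0.431), Nr1d1 in astrocytes above microglia (1.10) and Nr1d2 in interneurons above excitatory neurons (0.283), each in 9 of 9 libraries and with adjusted p = 0.0264 in the exact permutation test. Per1 in oligodendrocytes lay above excitatory neurons by 0.666 in 8 of 9 libraries (exact permutation p = 0.00781, adjusted p = 0.0469). In PFC the pairs were Per2 and Cry2 in excitatory neurons above interneurons (1.31 and 0.541), Cry2 in astrocytes above excitatory neurons (0.629), Nr1d1 in astrocytes above endothelial cells (0.825) and Dbp in astrocytes above OPC (1.29), each in 9 of 9 libraries with adjusted p = 0.0492. No pair passed in PFC with the looser gate, after thinning or without any 1 mouse, and none in Hip without CGF 17, CGF 19, GF 6, GF 7, SPF 30, SPF 31 or SPF 32. Without 1 mouse, 8 libraries allow no p under 0.0078. The other neighbouring pairs did not differ beyond their spread over libraries by this test.

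**Figure D1:**
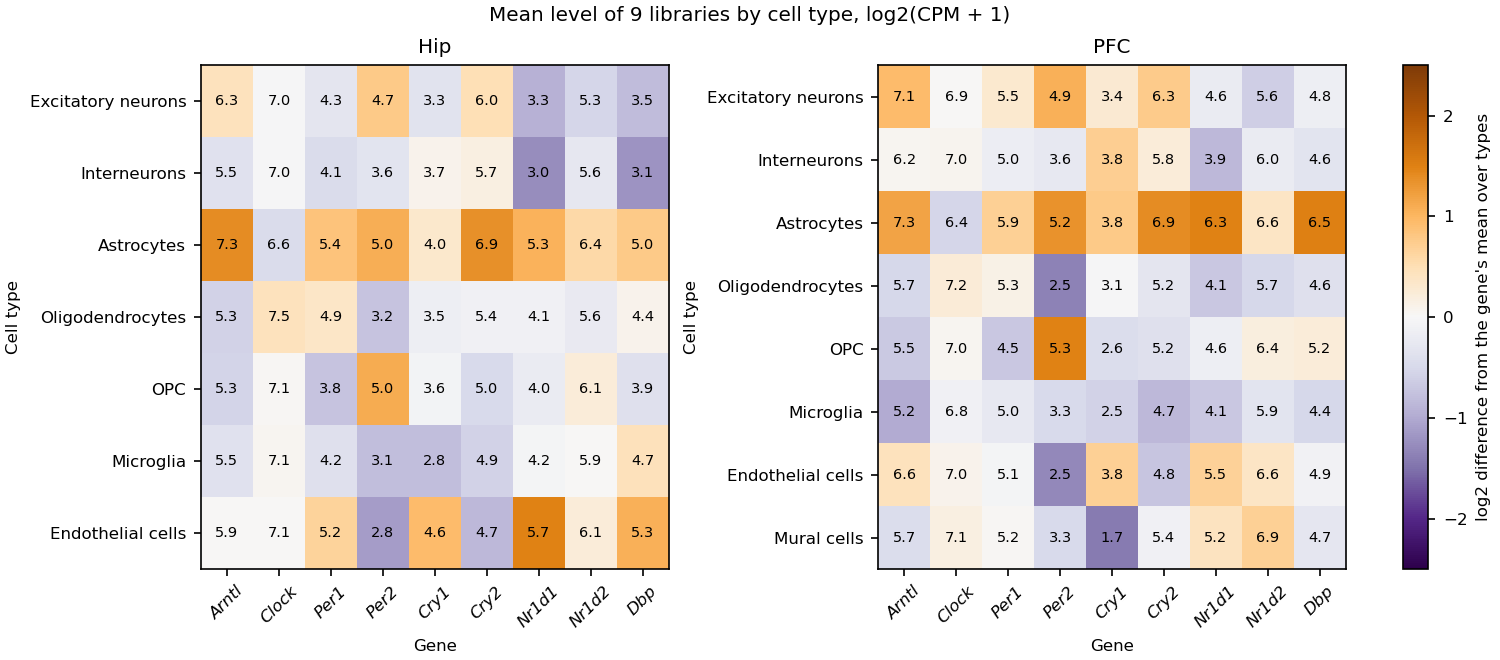
Mean level of each clock gene (columns) in each cell type (rows) of Hip and PFC, printed as the mean of log2(CPM + 1) over 9 libraries. The colour is the difference of that mean from the gene's mean over the types of the region. Arntl, Cry2, Dbp and Nr1d1 are therefore warm in astrocytes of both regions, and in Hip Dbp and Nr1d1 are highest in endothelial cells.

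The effect of the missing microbiota was asked by comparing GF with SPF mice, and its reversal by colonization by comparing GF with CGF mice. Both comparisons use the same 3 GF mice. Differences below are log2 fold changes ± standard error from edgeR's quasi-likelihood test on UMI sums of 3 mice a group, and adjusted p-values are Benjamini-Hochberg values over all genes tested in that cell type, with a threshold of 0.05. In Hip, 14 of 57 tests of a clock gene in a cell type passed between GF and SPF mice, 8 higher and 6 lower in GF mice, with a median log2 fold change of -0.096. Over all genes and types of Hip 34.0% of tests passed in that comparison (18.7% higher and 15.3% lower), so the share among clock genes was not above that of all genes. In PFC, 12 of 40 passed, 5 higher and 7 lower, with a median of 0.004, where 48.2% of all tests passed (24.6% higher and 23.5% lower). Between GF and CGF mice, 15 of 57 passed in Hip (11 higher and 4 lower) against 34.5% of all tests (18.7% and 15.7%). In PFC 16 of 40 passed (7 higher and 9 lower) against 47.8% (24.7% and 23.2%).

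Many genes of all kinds differed between GF mice and both other groups, and libraries also differed in how a gene's level depended on its length and GC content. With each library's trend on length and GC removed, 9 of the 57 tests of GF against SPF passed in Hip (5 higher and 4 lower), where 20.3% of all tests passed, and 13 of the 40 in PFC, where 46.8% of all tests passed. Each result of a clock gene past the threshold, or call, was read again in 18 alternatives, which are other settings of the processing and fits that leave out 1 mouse. Where an alternative ended a call, it is named with its log2 fold change beside the result. Markers of a type also moved with group in the sums of that type. Summed markers of astrocytes in Hip astrocytes were 974.8 to 1058.3 CPM in GF mice, against 519.6 to 624.9 CPM in the SPF and 515.6 to 612.8 CPM in the CGF mice, and those of oligodendrocytes in Hip oligodendrocytes were 2343.1 to 2604.8, 1478.6 to 1939.3 and 1592.5 to 1779.3 CPM. In excitatory neurons they were 533.2 to 573.7 CPM in GF and 669.2 to 761.0 CPM in SPF mice of Hip and 464.4 to 492.3 and 361.7 to 427.5 CPM in PFC. Of the 5 markers, 1 was higher and 2 were lower in all GF than in all SPF mice of Hip. In PFC 2 were higher and 1 was lower. In PFC interneurons the markers of interneurons were 12307.4 to 13200.4 CPM in GF mice, against 7786.6 to 9839.2 CPM in the SPF and 8326.1 to 10343.1 CPM in the CGF mice. Only 1 of these 6 markers was higher in all GF than in all SPF mice, and 2 were lower, so the sum does not describe the whole list. In Hip interneurons they were 8089.4 to 13274.7 CPM in GF mice, against 12503.1 to 15626.0 CPM in the SPF and 14836.0 to 18085.7 CPM in the CGF mice. There 4 of the 6 markers were higher in all GF than in all SPF mice and 1 was lower, so the sum does not give the direction of most of them. Markers of microglia in Hip microglia were 2319.3 to 2516.6 CPM in GF mice, with 1405.5 to 1778.8 CPM in SPF and 1317.6 to 1629.8 CPM in CGF mice, and markers of oligodendrocytes in PFC oligodendrocytes were 2157.7 to 2707.6, 1555.2 to 2001.9 and 1600.8 to 1765.2 CPM in the same order. Their part in the results of these sums, those of Dbp, Per1 and Per2 in PFC interneurons included, was not tested. Batches of library preparation are not given in the sources used here and cannot be told apart from the group.

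**Figure D2:**
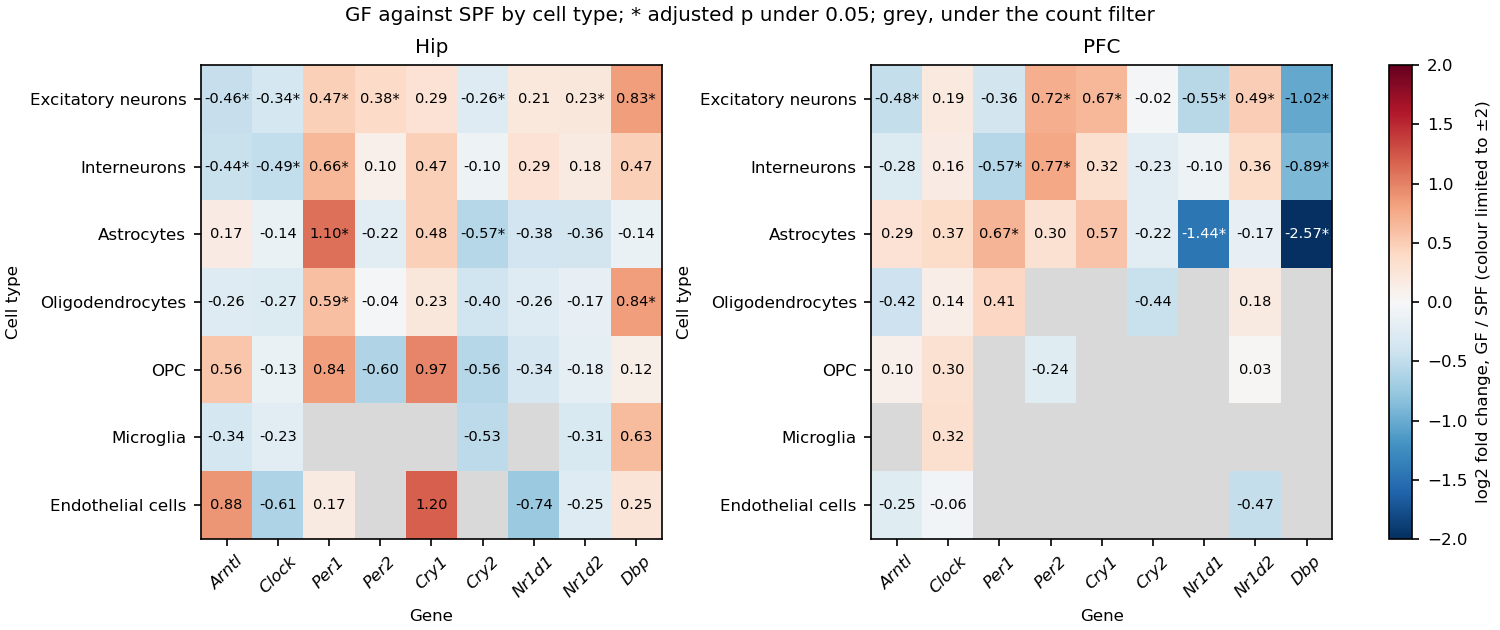
Log2 fold change between GF and SPF mice (colour) of each clock gene in each cell type of Hip and PFC, 3 mice a group, with an asterisk where edgeR's adjusted p was under 0.05 and grey where counts were too low to test. Arntl is lower in excitatory neurons of both regions, Per1 is higher in astrocytes of both regions, and Dbp is higher in Hip excitatory neurons and lower in all 3 tested types of PFC.

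The activator Arntl was lower in excitatory neurons of GF mice in both regions. In Hip excitatory neurons it had 69.9, 57.0 and 73.5 CPM in GF mice, 93.4, 89.4 and 92.4 CPM in SPF mice, and 89.1, 80.2 and 79.0 CPM in CGF mice. All 3 GF mice lay below all SPF and CGF mice. Against SPF mice the difference was -0.46 ± 0.09 (adjusted p = 0.00273), and against CGF mice -0.31 ± 0.09 (adjusted p = 0.0194). The contrast with SPF mice was called in 17 of 18 alternatives but not with the length and GC trend removed (-0.21). The CGF contrast was called in 15 of 18 alternatives but not without TMM scaling (-0.11), with the length and GC trend removed (-0.04) or without CGF 17 (-0.26). Dentate granule neurons, the excitatory cells of the dentate gyrus, had 40.8, 46.3 and 50.0 CPM in GF mice, 75.3, 70.9 and 69.9 CPM in SPF mice, and 73.0, 63.6 and 56.2 CPM in CGF mice. The groups again did not overlap between GF mice and the others (-0.66 ± 0.10, adjusted p = 0.000439 against SPF), and this difference was called in 18 of 18 alternatives (-0.73 to -0.38). Against CGF mice it was -0.49 ± 0.10 (adjusted p = 0.00235), called in 17 of 18 alternatives but not with the length and GC trend removed (-0.17).

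In excitatory neurons of PFC, Arntl had 122, 105 and 120.2 CPM in GF mice, 159, 163 and 163 CPM in SPF mice, and 146, 142 and 142 CPM in CGF mice. The 3 groups did not overlap, with GF mice lowest, CGF mice between and SPF mice highest. The difference of GF mice was -0.48 ± 0.08 (adjusted p = 0.000234) from SPF and -0.31 ± 0.08 (adjusted p = 0.00513) from CGF mice. Of the 2 results, the first was called in 18 of 18 alternatives (-0.62 to -0.41). The second was called in 18 of 18 alternatives (-0.48 to -0.24).

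Interneurons showed Arntl lower in GF than in SPF mice in Hip (-0.44 ± 0.11, adjusted p = 0.00766), a result called in 17 of 18 alternatives but not with the length and GC trend removed (-0.20). Their Hip values were 41.9, 34.0 and 40.0 CPM in GF mice, 49.1, 50.4 and 57.6 CPM in SPF mice, and 45.5, 43.4 and 47.0 CPM in CGF mice, with all GF mice below all others. In PFC interneurons the same difference was -0.28 ± 0.13 (adjusted p = 0.0751), short of the threshold, and that from CGF mice was -0.32 ± 0.12 (adjusted p = 0.0393). The latter was called in 10 of 18 alternatives but not with the stricter gate (-0.32), with the looser gate (-0.25), in DESeq2 (-0.32), without the low-count filter (-0.30), without CGF 18 (-0.21), without GF 5 (-0.36), without GF 6 (-0.26) or without GF 7 (-0.34).

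Astrocytes, where Arntl was highest, gave no call for it in either region. Hip astrocytes had 200.05, 97.1 and 164 CPM in GF mice, 131, 159 and 123 CPM in SPF mice, and 216, 170.3 and 189 CPM in CGF mice, and PFC astrocytes had 213, 119.9 and 189 CPM in GF mice, 128, 131 and 165 CPM in SPF mice, and 211, 182 and 182 CPM in CGF mice. GF mouse 6 was the lowest of all 9 mice in both regions and GF mouse 5 was among the highest, so the GF mice overlapped both other groups. Against CGF mice, Arntl also passed as lower in GF mice in Hip microglia (-0.94 ± 0.34, adjusted p = 0.0477), PFC oligodendrocytes (-0.93 ± 0.31, adjusted p = 0.0163) and PFC endothelial cells (-1.05 ± 0.34, adjusted p = 0.0209). These 3 sums held few UMIs, 177, 178 and 148 over 9 libraries each. The microglial result was called in 7 of 18 alternatives but not with the looser gate (-0.85), after thinning to equal depth (-0.88), in DESeq2 (-0.93), without TMM scaling (-0.91), with the length and GC trend removed (-0.72), without CGF 17 (-0.71), without CGF 19 (-0.83), without GF 5 (-1.03), without GF 6 (-0.72), without GF 7 (-1.09) or without SPF 30 (-0.93). That of oligodendrocytes was called in 14 of 18 alternatives but not in DESeq2 (-0.92), without CGF 18 (-0.68), without GF 6 (-0.79) or without GF 7 (-0.74). That of endothelial cells was called in 13 of 18 alternatives but not after thinning to equal depth (-1.03), in DESeq2 (-1.05), with the length and GC trend removed (-0.90), without CGF 17 (-0.69) or without GF 6 (-0.78).

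Clock, the partner of BMAL1, was lower in GF neurons of Hip and not of PFC. Hip excitatory neurons had 114, 109 and 113 CPM in GF mice, 142, 144 and 141 CPM in SPF mice, and 143, 142 and 144 CPM in CGF mice, and Hip interneurons had 111, 104 and 95.1 CPM in GF mice, 136, 154 and 146 CPM in SPF mice, and 154, 148 and 142 CPM in CGF mice. In both types every GF mouse lay below every SPF and CGF mouse. The difference from SPF mice was -0.34 ± 0.05 (adjusted p = 0.000373) in excitatory neurons and -0.49 ± 0.08 (adjusted p = 0.000826) in interneurons, and that from CGF mice was -0.35 ± 0.05 (adjusted p = 0.000298) and -0.52 ± 0.09 (adjusted p = 0.000447). All 4 lost their call with the length and GC trend removed, which left -0.10, -0.25, -0.02 and -0.21 in that order. In PFC excitatory neurons the values were 132, 142 and 136 CPM in GF mice, 116, 118 and 125 CPM in SPF mice, and 109, 123 and 102 CPM in CGF mice, with the GF mice above both other groups. That difference was 0.19 ± 0.09 (adjusted p = 0.071) from SPF and 0.29 ± 0.09 (adjusted p = 0.0106) from CGF mice, and the second was called in 16 of 18 alternatives but not without TMM scaling (0.13) or with the length and GC trend removed (0.11).

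Per1 is induced by the activator pair and is also known to respond to glucocorticoids and to neuronal activity. It was higher in GF astrocytes of both regions. Hip astrocytes had 80.6, 72.0 and 89.2 CPM in GF mice, 44.1, 39.5 and 30.5 CPM in SPF mice, and 17.3, 29.3 and 27.2 CPM in CGF mice. The groups did not overlap, and the order was GF, SPF and CGF from high to low. GF mice were 2.15-fold above SPF mice (log2 fold change 1.10 ± 0.18, adjusted p = 0.000328) and 3.26-fold above CGF mice (log2 fold change 1.71 ± 0.19, adjusted p = 1.23e-05). That from SPF mice was called in 18 of 18 alternatives (0.91 to 1.21). That from CGF mice was called in 18 of 18 alternatives (1.42 to 1.86). Markers of astrocytes were higher in the same GF sums, as given above.

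PFC astrocytes had 105, 88.7 and 98.3 CPM in GF mice, 66.6, 49.2 and 66.5 CPM in SPF mice, and 23.8, 37.8 and 53.0 CPM in CGF mice of Per1. GF mice were again above all others, while SPF and CGF mice overlapped. The difference was 0.67 ± 0.20 (adjusted p = 0.00883) from SPF and 1.39 ± 0.21 (adjusted p = 8.65e-06) from CGF mice. The SPF contrast was called in 17 of 18 alternatives but not without SPF 31 (0.54). The other was called in 18 of 18 alternatives (1.08 to 1.74).

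Hip oligodendrocytes had 47.2, 46.1 and 51.3 CPM in GF mice, 35.3, 30.1 and 30.2 CPM in SPF mice, and 12.0, 20.7 and 19.1 CPM in CGF mice of Per1, with no overlap between any of the groups. The difference of GF mice was 0.59 ± 0.19 (adjusted p = 0.0216) from SPF and 1.46 ± 0.21 (adjusted p = 5.18e-05) from CGF mice. The first of these was called in 13 of 18 alternatives but not in DESeq2 (0.58), with the length and GC trend removed (0.43), without GF 7 (0.55), without SPF 31 (0.54) or without SPF 32 (0.55). The CGF contrast was called in 18 of 18 alternatives (1.18 to 1.62). Markers of oligodendrocytes were higher in these GF sums too, and their part was not tested.

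Neurons of the 2 regions moved apart in Per1. Hip excitatory neurons had 24.3, 22.8 and 24.3 CPM in GF mice, 19.6, 15.4 and 16.5 CPM in SPF mice, and 13.6, 14.6 and 15.2 CPM in CGF mice, with all GF mice above all others. The difference was 0.47 ± 0.10 (adjusted p = 0.00318) from SPF mice, called in 17 of 18 alternatives but not with the length and GC trend removed (0.23), and 0.72 ± 0.10 (adjusted p = 0.000301) from CGF mice, called in 18 of 18 alternatives (0.36 to 0.92). Dentate granule neurons had 12.1, 14.2 and 12.0 CPM in GF mice, 12.8, 10.7 and 10.8 CPM in SPF mice, and 11.4, 12.4 and 11.4 CPM in CGF mice, with overlapping groups and no call against SPF mice (0.17 ± 0.12, adjusted p = 0.274). Hip interneurons gave 0.66 ± 0.21 (adjusted p = 0.0236) against SPF, called in 13 of 18 alternatives but not with the looser gate (0.57), with the length and GC trend removed (0.41), without GF 7 (0.59), without SPF 30 (0.66) or without SPF 32 (0.58), and 1.14 ± 0.22 (adjusted p = 0.00127) against CGF mice, called in 18 of 18 alternatives (0.79 to 1.4).

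In PFC interneurons Per1 went the other way. The values were 22.6, 27.2 and 30.7 CPM in GF mice, 43.8, 35.8 and 40.1 CPM in SPF mice, and 26.2, 24.6 and 45.8 CPM in CGF mice, with the GF mice below the SPF mice and the CGF mice spanning both. The difference from SPF mice was -0.57 ± 0.20 (adjusted p = 0.0271), called in 12 of 18 alternatives but not with the looser gate (-0.47), with the length and GC trend removed (-0.19), without GF 5 (-0.46), without GF 6 (-0.57), without SPF 30 (-0.50) or without SPF 32 (-0.57). PFC excitatory neurons had 39.8, 48.1 and 36.5 CPM in GF mice, 51.8, 54.0 and 54.1 CPM in SPF mice, and 31.4, 31.6 and 61.1 CPM in CGF mice and passed in neither comparison. CGF mouse 19 stood above the other 2 CGF mice there and in 6 of 10 tested sums.

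Per2 was higher in excitatory neurons of GF mice in both regions. PFC excitatory neurons had 35.2, 48.5 and 39.3 CPM in GF mice, 24.9, 22.1 and 27.4 CPM in SPF mice, and 18.3, 20.7 and 30.6 CPM in CGF mice, and Hip excitatory neurons had 38.3, 27.9 and 27.3 CPM in GF mice, 24.8, 24.0 and 23.0 CPM in SPF mice, and 20.5, 20.9 and 22.9 CPM in CGF mice. All GF mice lay above all SPF and CGF mice in each. In PFC the difference was 0.72 ± 0.18 (adjusted p = 0.00383) from SPF and 0.82 ± 0.18 (adjusted p = 0.00172) from CGF mice, and both were called in 18 of 18 alternatives. In Hip it was 0.38 ± 0.12 (adjusted p = 0.0287) and 0.54 ± 0.12 (adjusted p = 0.00533). The Hip difference from SPF mice was called in 14 of 18 alternatives but not without GF 5 (0.20), without SPF 30 (0.41), without SPF 31 (0.38) or without SPF 32 (0.33), and that from CGF mice was called in 18 of 18 alternatives (0.36 to 0.74). Against SPF mice Per2 passed in dentate granule neurons (0.56, called in 17 of 18 alternatives but not without SPF 30) and not in the other excitatory neurons of Hip. Against CGF mice it passed in both (0.65 and 0.48), each called in 18 of 18 alternatives.

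Interneurons of PFC also had more Per2 in GF than in SPF mice (0.77 ± 0.28, adjusted p = 0.0282), from 10.3, 17.5 and 19.1 CPM in GF mice, 10.3, 8.02 and 9.30 CPM in SPF mice, and 8.59, 10.5 and 9.15 CPM in CGF mice. GF mouse 5 equalled the highest SPF mouse to 3 digits, and the result was called in 10 of 18 alternatives but not with the stricter gate (0.84), with the looser gate (0.51), after thinning to equal depth (0.61), in DESeq2 (0.78), without GF 6 (0.69), without GF 7 (0.60), without SPF 31 (0.68) or without SPF 32 (0.77). The difference from CGF mice was 0.74 ± 0.27 (adjusted p = 0.0289), called in 13 of 18 alternatives but not in DESeq2 (0.74), without CGF 17 (0.67), without CGF 19 (0.72), without GF 6 (0.66) or without GF 7 (0.57). In PFC astrocytes Per2 passed against CGF mice (0.86 ± 0.25, adjusted p = 0.00678) and not against SPF mice (0.30 ± 0.25, adjusted p = 0.333). The former was called in 17 of 18 alternatives but not without CGF 17 (0.74).

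Cry1 was higher in GF neurons, most plainly against CGF mice. PFC excitatory neurons had 12.5, 14.8 and 14 CPM in GF mice, 7.63, 10.1 and 8.11 CPM in SPF mice, and 7.05, 6.33 and 6.98 CPM in CGF mice, and the groups did not overlap. GF mice were 1.59-fold above SPF mice (log2 fold change 0.67 ± 0.14, adjusted p = 0.00105) and 2.03-fold above CGF mice (log2 fold change 1.02 ± 0.14, adjusted p = 5.16e-05). Both were called in 18 of 18 alternatives. Hip excitatory neurons had 10.6, 10.9 and 11.1 CPM in GF mice, 8.52, 10.4 and 7.73 CPM in SPF mice, and 6.72, 7.10 and 6.77 CPM in CGF mice, with 0.29 ± 0.11 (adjusted p = 0.0594) against SPF and 0.66 ± 0.12 (adjusted p = 0.00117) against CGF mice. The latter was called in 18 of 18 alternatives (0.63 to 0.87). Interneurons passed against CGF mice in Hip (0.81 ± 0.19, adjusted p = 0.00478) and PFC (0.70 ± 0.23, adjusted p = 0.0201), the first called in 18 of 18 alternatives (0.64 to 1.001) and the second called in 14 of 18 alternatives but not with the stricter gate (0.55), after thinning to equal depth (0.68), without CGF 17 (0.63) or without GF 7 (0.66).

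Cry2, the other cryptochrome, moved in the opposite direction and in Hip alone gave calls. Hip astrocytes had 117, 86.6 and 85.0 CPM in GF mice, 155, 146 and 129 CPM in SPF mice, and 139, 113 and 111 CPM in CGF mice. The GF mice lay below the SPF mice, and the CGF mice overlapped both groups. The difference from SPF mice was -0.57 ± 0.15 (adjusted p = 0.00721), called in 18 of 18 alternatives (-0.73 to -0.48), and that from CGF mice was -0.33 ± 0.15 (adjusted p = 0.0937). The part of the higher markers of astrocytes in these GF sums in the result of Cry2 was not tested. In Hip excitatory neurons it was -0.26 ± 0.08 (adjusted p = 0.0244) from SPF mice, called in 12 of 18 alternatives but not without TMM scaling (-0.10), with the length and GC trend removed (-0.28), without GF 6 (-0.21), without GF 7 (-0.23), without SPF 30 (-0.22) or without SPF 31 (-0.26), and -0.05 ± 0.08 (adjusted p = 0.626) from CGF mice. Dentate granule neurons gave -0.37 from SPF mice for Cry2, called in 17 of 18 alternatives but not without TMM scaling (-0.26). From CGF mice they gave -0.33, called in 13 of 18 alternatives. It was not called without TMM scaling (-0.15), CGF 17 (-0.25), CGF 18 (-0.29), GF 6 (-0.28) or GF 7 (-0.28). PFC excitatory neurons gave -0.02 ± 0.11 (adjusted p = 0.867) from SPF mice, which turned to 0.27 and passed with the length and GC trend removed. The difference between regions in the change of Cry2 was past the threshold in no type.

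Nr1d1, which encodes REV-ERB alpha, was lower in GF mice in PFC. PFC astrocytes had 34.5, 52.7 and 41.4 CPM in GF mice, 126, 91.0 and 129 CPM in SPF mice, and 118, 81.7 and 106 CPM in CGF mice. All GF mice were below all SPF and CGF mice, which overlapped. GF mice were 2.72-fold below SPF mice (log2 fold change -1.44 ± 0.20, adjusted p = 1.72e-06) and 2.42-fold below CGF mice (log2 fold change -1.27 ± 0.19, adjusted p = 7.09e-06). The first was called in 18 of 18 alternatives (-1.60 to -1.30). The second was called in 18 of 18 alternatives (-1.43 to -1.15). PFC excitatory neurons had 13.7, 22.5 and 15.8 CPM in GF mice, 24.1, 26.1 and 26.1 CPM in SPF mice, and 27.8, 24.5 and 31.3 CPM in CGF mice, again with every GF mouse below every other mouse. There the difference was -0.55 ± 0.16 (adjusted p = 0.0113) from SPF and -0.68 ± 0.16 (adjusted p = 0.00327) from CGF mice, both called in 18 of 18 alternatives. Markers of astrocytes, in which Nr1d1 was higher, were lower in these GF sums than in the SPF sums (30.7 to 41.4 and 55.3 to 56.2 CPM), and their part was not tested.

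No type of Hip gave a call for Nr1d1 between GF and SPF mice. Hip astrocytes had 30.4, 33.2 and 32.3 CPM in GF mice, 44.6, 38.1 and 42.4 CPM in SPF mice, and 56.4, 39.0 and 33.9 CPM in CGF mice, where the GF mice lay below all others and the difference from SPF mice was -0.38 ± 0.20 (adjusted p = 0.142). With the length and GC trend removed it was -0.85 and passed. Hip excitatory neurons had 8.59, 11.8 and 9.90 CPM in GF mice, 8.03, 7.47 and 10.6 CPM in SPF mice, and 8.15, 8.97 and 8.15 CPM in CGF mice, with overlapping groups. Nr1d2, which encodes REV-ERB beta, was slightly higher in GF excitatory neurons, from 41.8, 43.0 and 40.2 CPM in GF mice, 37.5, 34.1 and 35.4 CPM in SPF mice, and 38.2, 42.2 and 38.9 CPM in CGF mice in Hip and 49.8, 74.1 and 45.8 CPM in GF mice, 38.6, 41.2 and 41.4 CPM in SPF mice, and 45.1, 46.1 and 42.1 CPM in CGF mice in PFC. All GF mice were above all SPF mice in both, and GF mouse 6 stood far above the rest in PFC. The difference was 0.23 ± 0.07 (adjusted p = 0.0187) in Hip, called in 15 of 18 alternatives but not without GF 6 (0.20), without SPF 31 (0.19) or without SPF 32 (0.19). It was 0.49 ± 0.15 (adjusted p = 0.0145) in PFC, called in 14 of 18 alternatives but not without TMM scaling (0.34), with the length and GC trend removed (0.16), without GF 6 (0.24) or without SPF 30 (0.45). Against CGF mice Nr1d2 passed in neither region, with 0.07 ± 0.07 (adjusted p = 0.437) in Hip and 0.35 ± 0.15 (adjusted p = 0.0623) in PFC.

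Dbp gave the largest change of any clock gene between GF and SPF mice, in PFC astrocytes. The values there were 32.6, 40.2 and 26.3 CPM in GF mice, 208, 211 and 167 CPM in SPF mice, and 99.5, 114 and 127 CPM in CGF mice, from 771 UMIs in all. The 3 groups did not overlap, with GF mice lowest, CGF mice between and SPF mice highest. GF mice were 5.94-fold below SPF mice (log2 fold change -2.57 ± 0.18, adjusted p = 3.92e-11) and 3.44-fold below CGF mice (log2 fold change -1.78 ± 0.18, adjusted p = 2.66e-08). The former was called in 18 of 18 alternatives (-2.72 to -2.42). That from CGF mice was called in 18 of 18 alternatives (-1.93 to -1.63). Summed markers of excitatory neurons in the PFC astrocytes were 126.3 to 131.7 CPM in GF and 92.9 to 148.4 CPM in SPF mice, and those of oligodendrocytes were 104.0 to 116.6 and 42.7 to 58.7 CPM. Markers of the astrocytes themselves were 810.7 to 992.1 CPM in GF and 895.8 to 1064.9 CPM in SPF mice.

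Hip astrocytes of the same mice had 29.7, 48.6 and 29.3 CPM in GF mice, 38.7, 41.7 and 36.5 CPM in SPF mice, and 23.1, 22.9 and 28.0 CPM in CGF mice of Dbp. The GF and SPF mice overlapped (-0.14 ± 0.19, adjusted p = 0.619), and the GF mice lay above all CGF mice without a call (0.52 ± 0.20, adjusted p = 0.055). With the length and GC trend removed the first value was -0.70 and passed. Markers of astrocytes were higher in these GF nuclei, and markers of excitatory neurons summed to 138.5 to 157.0 CPM in GF and 234.9 to 299.7 CPM in SPF nuclei, so the make-up of the Hip astrocyte sums also moved with the group and its part in the result was not tested.

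Excitatory neurons of the 2 regions changed in opposite directions in Dbp. Hip excitatory neurons had 12.9, 18.7 and 13.6 CPM in GF mice, 7.14, 7.97 and 10.3 CPM in SPF mice, and 6.87, 8.77 and 8.72 CPM in CGF mice, and PFC excitatory neurons had 13, 24.5 and 13.6 CPM in GF mice, 38.7, 34.2 and 30.9 CPM in SPF mice, and 31.3, 30.5 and 40.6 CPM in CGF mice. The GF mice were above all other mice in Hip and below all other mice in PFC. In Hip the difference was 0.83 ± 0.18 (adjusted p = 0.00446) from SPF and 0.89 ± 0.18 (adjusted p = 0.00293) from CGF mice, and with the length and GC trend removed it was 0.23 and 0.16, past the threshold in neither. The difference from SPF mice in Hip was called in 17 of 18 alternatives but not with the length and GC trend removed (0.23). In PFC it was -1.02 ± 0.22 (adjusted p = 0.00146) and -1.001 ± 0.22 (adjusted p = 0.00169). Markers of astrocytes, in which Dbp was higher, summed to 30.7 to 41.4 CPM in the GF, 55.3 to 56.2 CPM in the SPF and 37.2 to 50.9 CPM in the CGF excitatory neurons of PFC, and their part in this difference was not tested. The PFC values were called in 18 of 18 alternatives (-1.38 to -0.86) against SPF and called in 18 of 18 alternatives (-1.36 to -0.84) against CGF mice.

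PFC interneurons had 13.4, 20.5 and 15.3 CPM in GF mice, 34.0, 35.8 and 22.1 CPM in SPF mice, and 21.3, 31.4 and 34.0 CPM in CGF mice of Dbp, with all GF mice below all others. The difference was -0.89 ± 0.23 (adjusted p = 0.00379) from SPF, called in 18 of 18 alternatives (-1.09 to -0.65), and -0.79 ± 0.23 (adjusted p = 0.00818) from CGF mice, called in 18 of 18 alternatives (-0.99 to -0.62). Hip interneurons had 7.92, 13.2 and 8.34 CPM in GF mice, 7.80, 4.25 and 9.29 CPM in SPF mice, and 4.78, 7.23 and 7.09 CPM in CGF mice and gave no call, with 0.47 ± 0.30 (adjusted p = 0.234) from SPF and 0.64 ± 0.31 (adjusted p = 0.116) from CGF mice. Hip oligodendrocytes had 26.2, 42.4 and 30.2 CPM in GF mice, 16.5, 15.1 and 22.7 CPM in SPF mice, and 9.37, 15.1 and 16.2 CPM in CGF mice, with all GF mice above all others. There it was 0.84 ± 0.25 (adjusted p = 0.0148) from SPF and 1.29 ± 0.27 (adjusted p = 0.00132) from CGF mice. The contrast with SPF mice was called in 14 of 18 alternatives but not with the length and GC trend removed (0.34), without GF 6 (0.60), without SPF 30 (0.76) or without SPF 31 (0.71). The other was called in 17 of 18 alternatives but not with the length and GC trend removed (0.60). The part of the higher markers of oligodendrocytes in these GF sums was not tested.

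**Figure D3:**
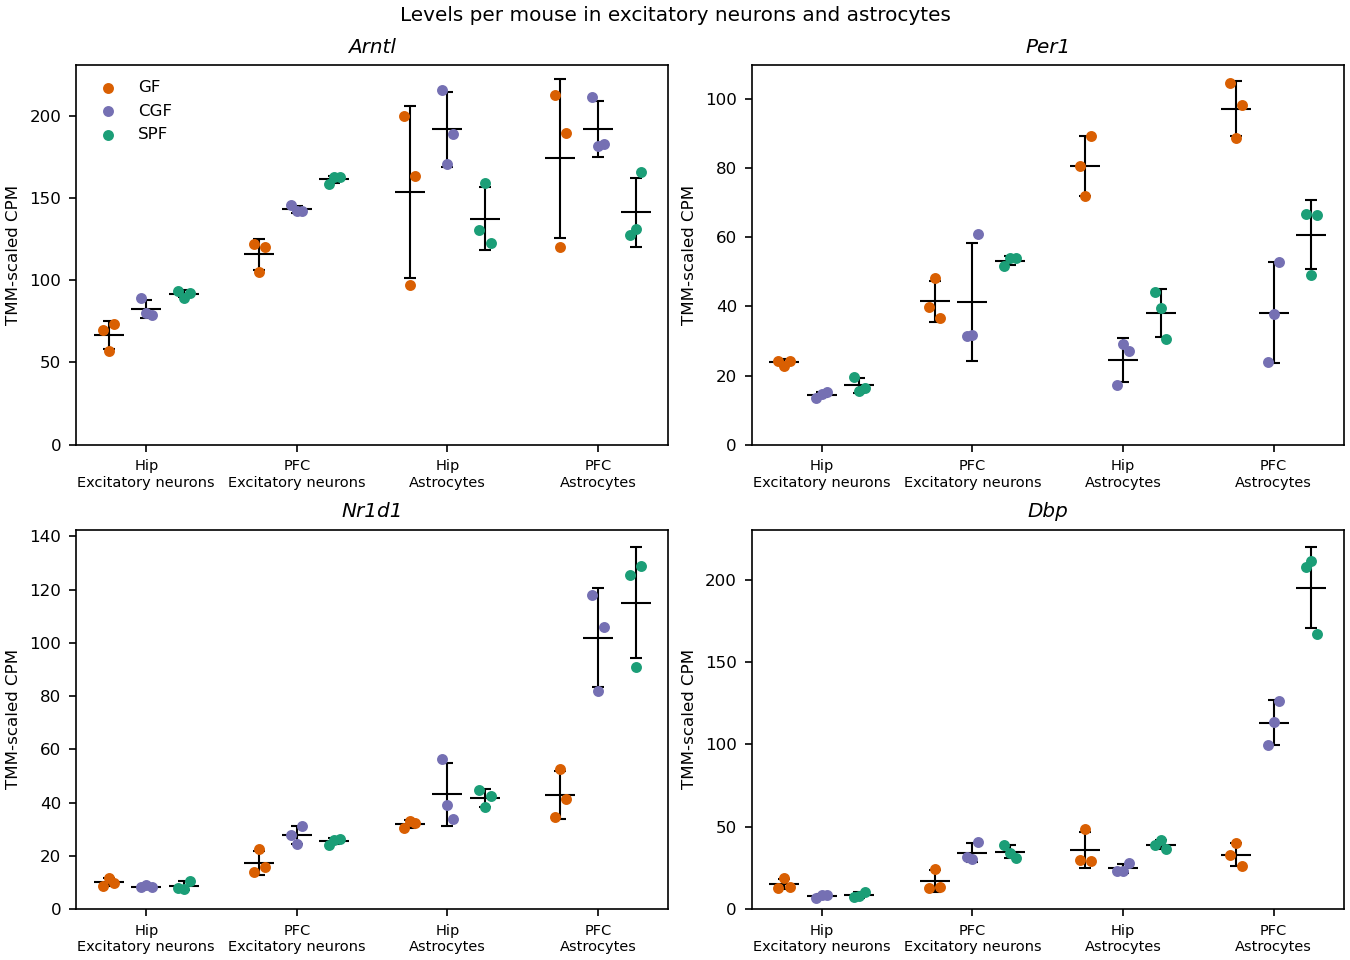
Levels of Arntl, Per1, Nr1d1 and Dbp in CPM for each mouse (points) with the group mean and SD (bars), in excitatory neurons and astrocytes of Hip and PFC. In PFC astrocytes the 3 GF mice lie below all SPF and CGF mice in Dbp and Nr1d1 and above them in Per1, while in Hip astrocytes the GF and SPF mice overlap in Dbp.

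CGF and SPF mice, which both carried a microbiota, gave few calls. In Hip, 0 of 57 tests of a clock gene passed in edgeR, 0 in DESeq2, and 13 had an unadjusted p under 0.05, where 0.255% of all tests passed (0.154% higher and 0.101% lower). In PFC, 1 of 40 passed in edgeR and 0 in DESeq2, 6 had an unadjusted p under 0.05, and 0.194% of all tests passed (0.0979% higher and 0.0963% lower). The call was Dbp in astrocytes, lower in CGF than in SPF mice (-0.79 ± 0.17, adjusted p = 0.0467), and it was called in 6 of 18 alternatives but not with the stricter gate (-0.77), with the looser gate (-0.72), after thinning to equal depth (-0.78), in DESeq2 (-0.79), with the length and GC trend removed (-0.71), without CGF 17 (-0.69), without CGF 18 (-0.79), without CGF 19 (-0.86), without GF 5 (-0.78), without SPF 30 (-0.74), without SPF 31 (-0.72) or without SPF 32 (-0.89). Arntl in PFC excitatory neurons lay lower in all CGF than in all SPF mice without a call (-0.17 ± 0.08, adjusted p = 0.383). The counts of unadjusted p compare with those of all genes in the same edgeR tests. In Hip these were 2783 of 18609 in excitatory neurons, 1322 of 13297 in interneurons and 1124 of 12728 in astrocytes. In PFC they were 2310 of 17284, 1192 of 12174 and 913 of 10239, and the other types had lower shares. The shares of clock genes, 13 of 57 and 6 of 40, were above these, and that excess was not tested.

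The regions were then compared within each group in 1 fit of all 18 libraries. This fit, also used for the interaction below, had no term for the mouse and took its 2 libraries as separate samples. In GF mice 7 of 57 tests of a clock gene passed, all lower in Hip, where 10.9% of all tests passed (5.28% higher and 5.61% lower). In SPF mice 14 of 57 passed, 2 higher and 12 lower in Hip, against 41.5% of all tests (21.7% higher and 19.8% lower). CGF mice gave 15 of 57, 3 higher and 12 lower, against 43.0% (22.0% higher and 20.9% lower). Hip libraries were deeper than PFC libraries in SPF and CGF mice and shallower in GF mice, without overlap in median UMIs, and region and depth cannot be told apart, since thinning set 1 depth within a region and not across regions. Excitatory neurons had less Arntl in Hip than in PFC in all 3 groups, with log2 fold changes of -0.70 (GF), -0.67 (SPF) and -0.66 (CGF). Their Dbp differed by -0.09 in GF mice, -1.88 in SPF and -1.94 in CGF mice, and only the last 2 passed. Nr1d1 in excitatory neurons gave -0.69, -1.4 and -1.59 and passed in all 3 groups, and Per1 gave -0.71, -1.49 and -1.39 and also passed in all 3, that of GF mice not without GF 6 (-0.55).

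In astrocytes the regions differed in Dbp by -2.33 ± 0.17 (adjusted p = 4.77e-11) in SPF mice, by -2.18 ± 0.19 (adjusted p = 4.42e-10) in CGF mice, and by 0.16 ± 0.20 (adjusted p = 0.755) in GF mice. For Nr1d1 in astrocytes these values were -1.49, -1.26 and -0.37, with the first 2 past the threshold. OPC had less Dbp in Hip in SPF (-1.43) and CGF mice (-1.67). In SPF mice this was called in 11 of 18 alternatives but not after thinning to equal depth (-1.27), in DESeq2 (-1.41), with the length and GC trend removed (-0.92), without GF 7 (-1.42), without SPF 30 (-1.53), without SPF 31 (-1.51) or without SPF 32 (-1.03). In CGF mice it was called in 16 of 18 alternatives but not with the length and GC trend removed (-1.14) or without CGF 19 (-1.56). Clock was lower in Hip than in PFC excitatory neurons of GF mice (-0.19 ± 0.07, adjusted p = 0.0283) and higher in SPF (0.40) and CGF mice (0.49). With the length and GC trend removed, the latter 2 were 0.04 and 0.08 and did not pass. The result in GF mice was called in 12 of 18 alternatives but not without TMM scaling (-0.06), without the low-count filter (-0.20), with the length and GC trend removed (-0.05), with the mouse as a block (-0.19), without GF 6 (-0.14) or without GF 7 (-0.21). With the mouse as a block, the value in GF mice was -0.19 with adjusted p = 0.0519, and this was the only 1 of 45 calls over both regions that the block ended.

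Whether the GF effect itself differed between regions was tested as an interaction, the log2 fold change of GF against SPF mice in Hip minus that in PFC. It passed in 9 of 57 tests, 7 higher and 2 lower, against 28.3% of all tests (12.9% and 15.4%). Dbp differed in 3 of the 7 types tested, by 1.80 ± 0.31 (adjusted p = 0.000116) in excitatory neurons, 1.36 ± 0.39 (adjusted p = 0.00875) in interneurons and 2.49 ± 0.27 (adjusted p = 1.35e-07) in astrocytes. Nr1d1 differed in excitatory neurons (0.71 ± 0.24, adjusted p = 0.0201) and astrocytes (1.12 ± 0.29, adjusted p = 0.00514), Per1 in excitatory neurons (0.78 ± 0.27, adjusted p = 0.022) and interneurons (1.22 ± 0.31, adjusted p = 0.00324), and Clock in the opposite sense in excitatory neurons (-0.59 ± 0.09, adjusted p = 3.69e-05) and interneurons (-0.66 ± 0.14, adjusted p = 0.000853). With the length and GC trend removed, the calls of Dbp remained in excitatory neurons (1.23) and astrocytes (1.96). The other 7 were then 0.66 for Dbp in interneurons, 0.34 and 0.68 for Nr1d1, 0.28 and 0.71 for Per1, and -0.09 and -0.15 for Clock, in the order of types above, and did not pass. Per1 in excitatory neurons was called in 13 of 18 alternatives but not with the length and GC trend removed (0.28), without GF 5 (0.74), without GF 7 (0.67), without SPF 31 (0.69) or without SPF 32 (0.73). Nr1d1 in excitatory neurons was called in 14 of 18 alternatives but not with the length and GC trend removed (0.34), without GF 7 (0.65), without SPF 30 (0.69) or without SPF 31 (0.59). Dbp in interneurons was also lost without SPF 31 (0.97). With the mouse as a block, Cry1 in excitatory neurons passed as well in edgeR (-0.431 ± 0.146, adjusted p = 0.0235), which it did not in the main fit (-0.434). In the main setting Arntl gave no interaction call in any type, and in excitatory neurons its value was -0.03 ± 0.12 (adjusted p = 0.847), which turned to 0.38 with the trend removed (adjusted p = 0.00881) and 0.33 without TMM scaling (adjusted p = 0.0353), past the threshold in both.

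**Figure D4:**
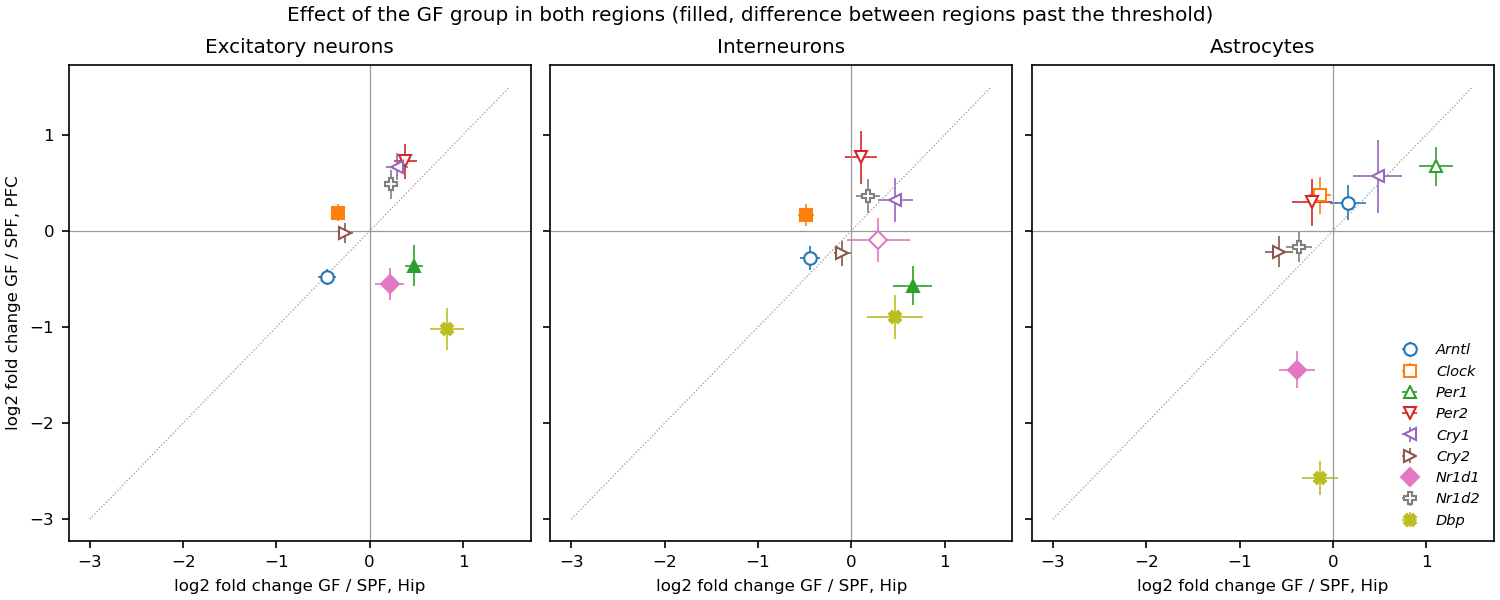
Log2 fold change of GF against SPF mice in Hip (horizontal axis) and in PFC (vertical axis) with standard errors, 1 point per clock gene in excitatory neurons, interneurons and astrocytes, filled where the difference between regions passed the threshold. Dbp lies far below the line of equal change in all 3 types, and Arntl lies near it in excitatory neurons.

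For some clock genes, mice of 1 group also kept a similar order over cell types. Among the GF mice, mouse 6 was the lowest in Arntl in 12 of 13 tested sums, the highest in Dbp in 9 of 10, in Nr1d2 in 11 of 13 and in Nr1d1 in 7 of 9. GF mouse 5 was the lowest in Nr1d1 in 8 of 9 sums, in Nr1d2 in 8 of 13 and in Dbp in 7 of 10, and the highest in Arntl in 9 of 13. Among the CGF mice, mouse 17 was the highest in Arntl in 8 of 13 sums and the lowest in Per1 in 8 of 10, in Per2 in 7 of 9 and in Nr1d2 in 9 of 13. The SPF mice had a less regular order, with mouse 32 the highest in Nr1d1 in 7 of 9 and mouse 30 the highest in Per1 in 7 of 10. Other genes had no such order, for example Cry1 in CGF mice, where each mouse was the highest in 3 of 9 sums. Sums of 1 mouse share the animal and its time of death, and sums of 1 region also share a library, so these counts are descriptions. How often genes at large gave such counts was not computed. Whether mice of 1 group were killed at different times is not given in the sources used here.

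**Figure D5:**
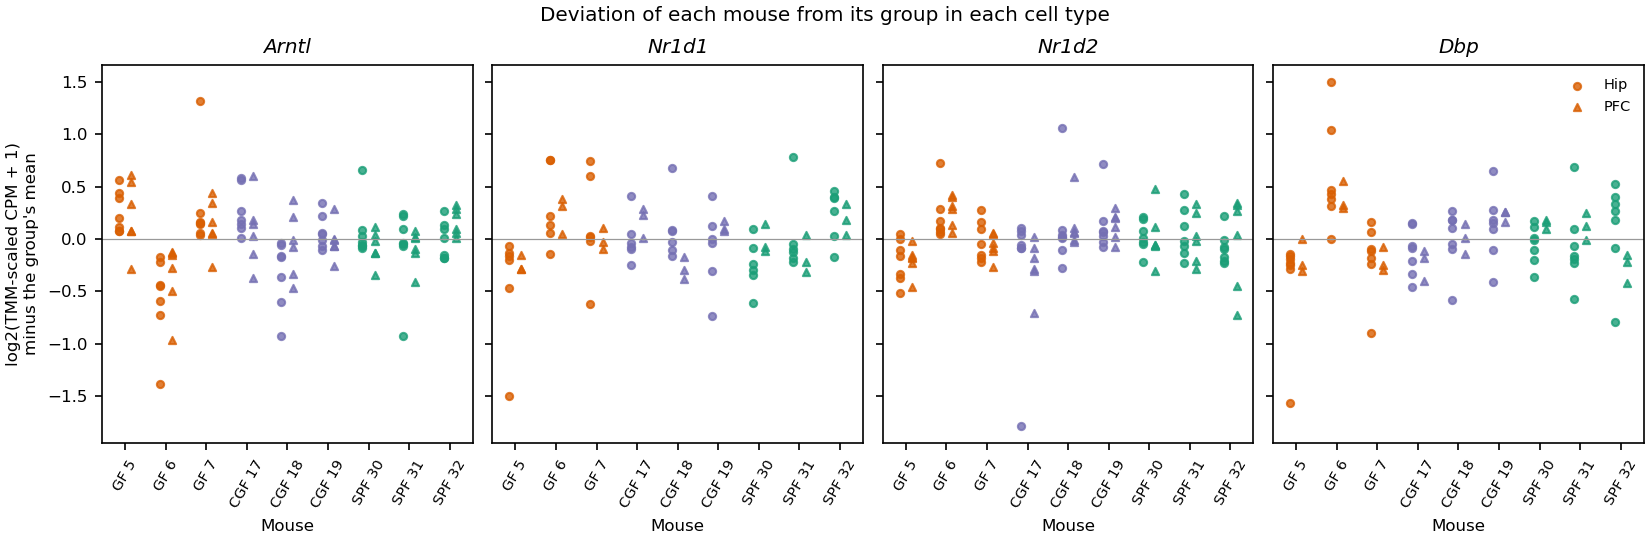
Deviation of each mouse from its group's mean log2 level of Arntl, Nr1d1, Nr1d2 and Dbp, 1 point per cell type and region. The points of GF mouse 6 lie below 0 in Arntl and mostly above 0 in Dbp and Nr1d2.

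The same deviations were used to find the genes that varied most like Arntl and most like Dbp. The deviations covered 108 sums (6 major types of 18 libraries). The 3529 genes compared passed the low-count filter in all 6 types of both regions and had a mean of at least 20 CPM. That did not require counts in every sum, and a sum of PFC microglia held as few as 59774 UMIs. Pearson's r is a description here, since the sums share libraries, mice and depth. The clock genes themselves did not have to pass that filter in all types or reach 20 CPM. In PFC microglia Arntl, Cry1, Cry2, Nr1d1 and Dbp had a library with 0 UMIs. Their SDs of log2(CPM + 1) there were 1.998, 1.907, 1.775, 1.618 and 1.924, against 0.293, 0.361, 0.179, 0.436 and 0.652 in PFC excitatory neurons. The part of such low counts in r was not tested. Arntl and Cry1 varied together with r = 0.534, Cry2 and Nr1d1 with 0.673, Per2 and Cry2 with 0.508 and Cry1 and Nr1d2 with 0.46, while Arntl and Dbp gave -0.35 and Cry1 and Dbp -0.352. Over all mice Arntl gave -0.015 with Nr1d2 and 0.002 with Nr1d1. The 5 genes most like Arntl were Tmem161b (0.843), Cops3 (0.838), 2810403A07Rik (0.831), Tardbp (0.805) and Tasp1 (0.796). Those with the lowest r were Rnf115 (-0.651), Mat2a (-0.646), Ubr2 (-0.638), Ramp1 (-0.636) and Ppp4r3b (-0.627). The 5 most like Dbp were Pex13 (0.72), Npdc1 (0.705), Dbi (0.70), Clk4 (0.698) and Man2a2 (0.678), and those with the lowest r were Vti1a (-0.511), 8030462N17Rik (-0.504), Mbd5 (-0.485), Hp1bp3 (-0.485) and Ppp1cb (-0.483).

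A wider list of 19 genes that act on or beside the loop was read in the same tests, and 18 of them could be tested. This list was chosen with earlier results of these data known. Between GF and SPF mice 28 of 100 tests passed in Hip, 6 higher and 22 lower in GF mice, in 14 genes and with a median of -0.214, where 34.0% of all tests passed (18.7% higher and 15.3% lower). In PFC 34 of 84 passed, 15 higher and 19 lower, in 16 genes and with a median of -0.097, where 48.2% of all tests passed (24.6% higher and 23.5% lower). Of these 62 calls, 21 held in every alternative and 32 were lost with the length and GC trend removed, and leaving out 1 mouse ended 0 to 16 of them. In parentheses below, a log2 fold change of GF against SPF mice is followed by the number of alternatives in which it passed and the number that gave a value. Between CGF and SPF mice 0 passed in either region. Rora, a receptor that activates Arntl through the element that REV-ERB occupies, was lower in GF mice in 6 Hip types, namely excitatory neurons (-0.42, 14 of 18), interneurons (-0.42, 17 of 18), OPC (-0.44, 17 of 18), astrocytes (-0.62, 17 of 18), microglia (-1.11, 17 of 18) and oligodendrocytes (-1.001, 17 of 18). All 6 were lost with the length and GC trend removed, where they lay between -0.156 and 0.065. It was also lower in PFC oligodendrocytes (-1.21, 17 of 18) and microglia (-1.28, 18 of 18). Its relative Rorb was higher in PFC excitatory neurons (1.04, 18 of 18), interneurons (0.54, 8 of 18) and astrocytes (1.21, 18 of 18) and lower in Hip oligodendrocytes (-0.77, 9 of 18).

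Tef and Hlf encode the other PAR bZIP factors beside DBP. Tef was lower in GF mice in PFC excitatory neurons (-0.74, 18 of 18), interneurons (-0.71, 18 of 18), astrocytes (-0.68, 18 of 18) and oligodendrocytes (-0.70, 12 of 18) and in Hip astrocytes (-0.40, 15 of 18). Hlf was lower in Hip astrocytes (-0.83, 18 of 18) and OPC (-0.71, 10 of 18) and in PFC interneurons (-0.80, 18 of 18). Nfil3, which encodes the repressor that competes for the D-box, was higher in Hip excitatory neurons (0.50, 12 of 18). The E-box repressor gene Bhlhe41 was higher in excitatory neurons of Hip (0.54, 17 of 18) and PFC (1.34, 18 of 18) and in Hip interneurons (0.72, 10 of 18), and its relative Bhlhe40 in PFC astrocytes (0.81, 16 of 18) and oligodendrocytes (1.13, 10 of 15). Ciart and Cipc encode repressors of the activator pair. Ciart was higher in Hip excitatory neurons (0.91, 17 of 18) and interneurons (0.93, 16 of 18). Cipc was lower in Hip astrocytes (-0.40, 11 of 18) and higher in PFC excitatory neurons (0.44, 17 of 18) and oligodendrocytes (0.64, 14 of 18).

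Npas2, which can replace CLOCK, was lower in Hip excitatory neurons (-0.41, 11 of 18) and interneurons (-0.31, 9 of 18) and in PFC OPC (-1.76, 15 of 18) and oligodendrocytes (-1.77, 17 of 18). Arntl2 was lower in astrocytes of Hip (-1.04, 18 of 18) and PFC (-0.97, 16 of 18) and higher in PFC excitatory neurons (0.66, 12 of 18). Fbxl21, which encodes an F-box protein, was higher in PFC excitatory neurons (0.89, 13 of 18) and interneurons (1.28, 18 of 18). The casein kinase gene Csnk1e was lower in Hip excitatory neurons (-0.24, 17 of 18), astrocytes (-0.67, 18 of 18) and oligodendrocytes (-0.69, 13 of 18) and in PFC excitatory neurons (-0.43, 17 of 18), interneurons (-0.44, 17 of 18), OPC (-0.98, 14 of 18) and microglia (-0.84, 14 of 18). Csnk1d, its relative, was lower in PFC excitatory neurons (-0.53, 18 of 18) and interneurons (-0.63, 18 of 18). Btrc, which acts on phosphorylated PER, was lower in Hip excitatory neurons (-0.22, 16 of 18) and interneurons (-0.27, 10 of 18) and higher in PFC excitatory neurons (0.58, 18 of 18), interneurons (0.44, 17 of 18) and OPC (0.57, 11 of 18). Its Hip values turned to 0.10 and 0.04 with the trend removed. Usp2, a rhythmic deubiquitinase gene, was higher in astrocytes of Hip (1.08, 18 of 18) and PFC (1.62, 18 of 18), and Timeless was lower in PFC excitatory neurons (-1.14, 18 of 18).

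Because Per1 and Per2 also respond to other signals, 2 short lists were read beside them. Both lists were chosen with earlier results of these data known, so their shares of calls are not independent of the data. Of 33 tests of 6 immediate early genes in Hip, 28 passed higher and 0 lower in GF than in SPF mice (median 1.37), where 34.0% of all tests passed (18.7% higher). Of 29 in PFC 16 passed higher and 1 lower (median 0.837), where 48.2% of all tests passed (24.6% higher). With the length and GC trend removed 15 of the 28 Hip calls and 16 of the 17 PFC calls remained. Fos rose by 2.08 in excitatory neurons and 2.76 in astrocytes of Hip and by 2.90 in PFC astrocytes, and Egr1 fell in PFC excitatory neurons (-0.75), where Junb rose (0.84, 15 of 18 alternatives) and Per1 did not pass. In PFC interneurons, where Per1 was lower, Junb (1.35, 18 of 18), Fos (1.09, 15 of 18) and Arc (0.81, 14 of 18) were higher. Of 27 tests of 4 glucocorticoid-responsive genes in Hip, 14 passed higher and 3 lower (median 0.711), and of 25 in PFC 16 higher and 1 lower (median 1.53), against the same shares of all tests. With the trend removed 15 of 17 and 16 of 17 of these calls remained. Fkbp5, which encodes a co-chaperone of the glucocorticoid receptor, rose by 1.21 in Hip and 1.84 in PFC astrocytes. It was also higher in PFC excitatory neurons (1.56, 18 of 18) and interneurons (0.73, 17 of 18), in which Per1 was not, and gave -0.02 and -0.06 without a call in Hip excitatory neurons and interneurons, in which Per1 rose. The calls of Fos, Egr1 and Fkbp5 given here without a count held in 18 of 18 alternatives. Both lists moved with group, in part in other types and directions than Per1 and Per2, and their part in those results was not tested.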

How the data were processed

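Single-nucleus libraries (10x Genomics, 18 libraries, 9 mice) were analysed from the matrices of raw UMI counts that the authors deposited, 1 per library, unnormalised and not aggregated. The reads had been aligned to mm10 and counted by the authors with Cell Ranger (3.1.0 in the matrix headers), and the submitters' notes also name CASAVA 1.8. The kit and software versions differ between the series' design text and the other sources, and the handling of intronic reads is not given in the sources used here. The design text and sample labels give group and region, and 0 count columns were left unused.

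Nuclei with at least 200 genes and at most 10% mitochondrial UMIs were kept and assigned to a cell type when the posterior of a multinomial gate over marker genes reached 0.95 with at least 2 distinct markers. Nuclei with markers of more than 1 type (5.68% in Hip, 3.46% in PFC) were left out, which removes part of the doublets, and no doublet caller was run. Libraries entered a sum with at least 20 nuclei of the type. UMIs were summed per library and type and tested in edgeR 4.0.16 (filterByExpr, TMM, glmQLFit, glmQLFTest) with Benjamini-Hochberg adjustment over all genes of a type and a threshold of 0.05. Groups were compared in a fit of the 9 libraries of a region, and regions and the interaction in a fit of all 18 without a term for the mouse. Some genes passed the low-count filter in only part of the types, so tests do not cover every type. Per-mouse levels are TMM-scaled CPM, and levels between types are CPM of the total, compared as log2(CPM + 1) by exact sign-flip permutation. Mice are separate animals, but which mice shared a cage and when each was killed are not given. The p-values of group comparisons measure the spread between these mice. Those of regions and the interaction take the 2 libraries of a mouse as separate samples.

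Both regions of a number come from 1 animal. The study's list of libraries and the labels exchange GF mice 6 and 7 in both regions, so the pairing is the same under either, and the labels were followed. In excitatory neurons the deviations of an animal's regions from the group means correlated by 0.165 to 0.338. Those of other mice of the group correlated by -0.231 to -0.048. In interneurons the ranges overlapped (0.007 to 0.128 and -0.168 to 0.076), as in astrocytes (-0.020 to 0.175 and -0.115 to 0.059). They also overlapped in OPC, microglia and endothelial cells, but not in oligodendrocytes (0.021 to 0.159 and -0.123 to 0.012). The fit with the mouse as a block was taken as an alternative. The other alternatives were DESeq2 1.42.0, totals without TMM, no low-count filter, stricter (0.99) and looser (0.8) gates, thinning to equal depth, the 5% of nuclei with most UMIs left out, the trend of a library's counts on the length and GC content of genes removed (known for 30766 of 30905 genes), only the 2 groups compared, and each mouse left out. Length was that of the gene body, and GC content was that of the longest annotated transcript. Removing the trend also replaced TMM by centring each library on the mean log level of its genes. A fit without 1 mouse leaves 2 in its group.

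The 10 genes, the wider list and the lists of other signals were chosen with earlier results of these data known. Named genes were the 10, members of the wider list past the threshold in at least 1 type, and the 5 genes with the highest and the lowest r to Arntl and Dbp among genes tested in all 6 major types with a mean of at least 20 CPM. Some members of the wider list are not reported here by name. Fits were tested on simulated data. Tools were R 4.3.3, limma 3.58.1, Python 3.11.15, numpy 2.4.6, scipy 1.17.1, pandas 2.3.3 and matplotlib 3.10.9.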

Additional observations from a re-analysis of the deposited data

Results flagged for a closer look

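The change between GF and SPF mice differed between Hip and PFC, by edgeR's test of the interaction, for 4 of the clock genes. The log2 fold change in Hip minus that in PFC was 1.80 for Dbp, 0.777 for Per1, 0.708 for Nr1d1 and -0.592 for Clock in excitatory neurons, 1.36 for Dbp, 1.22 for Per1 and -0.657 for Clock in interneurons, and 2.49 for Dbp and 1.12 for Nr1d1 in astrocytes. The SPF libraries of PFC had a median of 3037 to 3208 UMIs per nucleus and those of Hip 6172.5 to 7087, so region and depth cannot be told apart in these values. These 9 of 57 tests compare with 28.3% of all tests, and removing the length and GC trend ended all but those of Dbp in excitatory neurons and astrocytes.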

How the results depend on the processing

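Of 125 calls of a clock gene in a type and comparison, 54 held under all alternatives and 71 were lost under at least 1, of which 3 also turned sign. The 125 include calls in dentate granule neurons and in the other excitatory neurons of Hip. Their nuclei are also part of the Hip excitatory neurons, so these calls are not separate from those of the pooled type. Removing the trend on gene length and GC content, which also replaced TMM scaling, ended the most, 54 calls, the 3 that turned among them. The parts of the trend and of the scaling were not told apart. Leaving out GF mouse 6 ended 20 calls, SPF mouse 31 ended 16, CGF mouse 17 and GF mouse 7 each 15, SPF mouse 32 14 and SPF mouse 30 13, and no other single alternative ended more than 13. The cause was not tested. Totals without TMM moved the median of all genes, for example from 0.036 to 0.196 in Hip excitatory neurons (GF against SPF), so those values are relative to another centre. With the mouse as a replicate block, 6, 15 and 17 tests passed between regions in GF, SPF and CGF mice and 10 for the interaction, and 1 call was lost.

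With the length and GC trend removed, calls numbered 9 for GF against SPF in Hip and 5 for the interaction (3 higher and 2 lower). CGF against SPF gave 3 in Hip without the low-count filter and 0 in PFC with the stricter or looser gate, thinning, DESeq2 or the trend removed. Hip against PFC in GF mice gave 4 without TMM. Neighbouring types gave 0 in PFC with the looser gate or thinning.

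Values that turned sign with the trend removed were, for GF against CGF, Clock in dentate granule neurons (0.005), for GF against SPF, Cry2 in PFC excitatory neurons (0.27), for Hip against PFC in CGF mice, Cry2 in excitatory neurons (0.31) and interneurons (0.273) and Clock in interneurons (-0.098), for the same in SPF mice, Clock in interneurons (-0.004), and, for the interaction, Arntl in excitatory neurons (0.382, and 0.325 without TMM). Of the other lists, for GF against SPF in Hip, Rora in excitatory neurons (0.007), interneurons (0.002) and astrocytes (0.065), Btrc in excitatory neurons (0.099) and interneurons (0.044) and Egr1 in interneurons (-0.095) also turned.

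Leaving out each mouse in turn gave 10 to 15 calls in Hip and 10 to 14 in PFC for GF against SPF, 11 to 15 and 13 to 17 for GF against CGF, and 0 to 0 and 0 to 1 for CGF against SPF. Between regions GF mice gave 3 to 8 calls (3 without mouse 6), SPF mice 12 to 15 and CGF mice 13 to 16, and the interaction gave 7 to 10. Neighbouring types gave 0 to 9 in Hip and 0 to 0 in PFC, where 8 libraries allow no p under 0.0078. Sums of OPC, microglia and endothelial cells held few UMIs of most clock genes, so differences there that missed the threshold may have been too small to detect at this depth.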
